A study of Mus musculus with 2 samples.

Results

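The ligands and partner receptors through which myeloid cells restrain or license lymphocytes were read in CD45+ immune cells sorted from MC38 tumors. MC38 is a colon carcinoma line of the mouse, here implanted subcutaneously. They were 9 genes, chosen by name from the 32285 genes of both matrices: Cd274, Pdcd1lg2, Cd80, Cd86, Lgals9, Vsir, Sirpa, Cd47 and Pirb. All 9 were found. Their UMIs (unique molecular identifiers, each marking 1 captured RNA molecule) were summed over 2380 of 4398 Control cells and 1735 of 3205 IR cells that marker genes placed among monocytes, macrophages, neutrophils and dendritic cells (DCs). The Control tumors were not irradiated, and the IR tumors had received 20 Gy in 1 dose and were taken 4 days later. Both came from WT mice, male and female and aged 8 to 10 weeks by the study's methods, and each group was a single library of 4 pooled tumors, without replicates.

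PD-L1 (Cd274) and PD-L2 (Pdcd1lg2) on antigen-presenting and other cells engage PD-1 on T cells and dampen their activation. CD80 and CD86, the B7 proteins, give costimulation through CD28 and are bound with higher affinity by the inhibitory receptor CTLA-4, so the same ligand serves activation and restraint. Interferons raise Cd274 in many cell types, and CD47 on a cell's surface restrains its phagocytosis by engaging SIRPa (Sirpa) on macrophages.

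Cells were placed in 7 myeloid and DC gates from lists of marker genes that hold none of the 9 members, after each cell had been thinned to 1000 UMIs. The Ly6c2 monocyte gate held 633 Control and 951 IR cells, the C1q macrophage gate 1470 and 357, the mature DC gate (Ccr7, Fscn1 and Ccl22) 115 and 134, and the neutrophil gate 30 and 177. The nonclassical monocyte gate (31 and 36 cells), cDC1 gate (40 and 22) and cDC2 gate (61 and 58) were small. The sample labels name CD45+CD11b+Ly6Chi cells, yet 387 Control and 245 IR cells passed the T cell gate and 209 and 310 the NK cell gate, so the libraries held CD45+ cells at large. Kept cells had a median of 7002 UMIs in Control and 7864 in IR, and 6 barcodes occurred in both libraries. A level is given as CPM, the gene's UMIs per 1000000 UMIs of a gate, with an exact Poisson 95% interval. A difference is the log2 ratio of CPM, IR over Control, with an exact conditional 95% interval. Both cover counting error only, and every difference compares these 2 libraries.

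The promoters of 4 members whose IR and Control levels differed in at least 1 of the larger gates are shown. Their letters could be searched for the motifs of interferon and inflammatory factors. Vsir, Cd47 and Pirb also differed in macrophages, and their windows were searched but are not printed. RefSeq promoter windows (GRCm38.p6, 250 bases before to 50 after the gene start) were available here for 7 of the 9 members. The bases before the start are printed, without annotated exon bases, with motif matches in capitals.
Cd274, chr19:29367188-29367437, plus strand: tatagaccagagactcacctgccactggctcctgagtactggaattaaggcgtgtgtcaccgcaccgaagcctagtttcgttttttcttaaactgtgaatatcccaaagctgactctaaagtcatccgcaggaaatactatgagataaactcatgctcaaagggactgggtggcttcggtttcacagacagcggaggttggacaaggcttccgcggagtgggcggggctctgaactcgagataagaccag
Pdcd1lg2, chr19:29410669-29410918, plus strand: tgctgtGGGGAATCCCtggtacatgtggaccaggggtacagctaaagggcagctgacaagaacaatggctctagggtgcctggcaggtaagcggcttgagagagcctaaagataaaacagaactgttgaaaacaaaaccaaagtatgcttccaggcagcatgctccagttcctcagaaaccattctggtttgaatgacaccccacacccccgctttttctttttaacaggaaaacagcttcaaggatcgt
Cd80, chr16:38458683-38458932, plus strand: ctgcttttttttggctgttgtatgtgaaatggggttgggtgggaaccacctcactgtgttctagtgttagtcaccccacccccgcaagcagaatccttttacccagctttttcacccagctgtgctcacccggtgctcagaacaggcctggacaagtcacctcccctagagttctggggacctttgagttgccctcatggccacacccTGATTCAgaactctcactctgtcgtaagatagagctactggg
Lgals9, chr11:78984947-78985174, minus strand: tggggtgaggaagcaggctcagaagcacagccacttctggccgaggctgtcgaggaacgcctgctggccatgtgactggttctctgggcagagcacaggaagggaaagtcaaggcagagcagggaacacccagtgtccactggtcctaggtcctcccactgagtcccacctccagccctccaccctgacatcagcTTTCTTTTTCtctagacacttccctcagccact
The windows were searched on both strands for the interferon-stimulated response element (ISRE, GAAA and GAAA with 2 bases between), the gamma-activated site (GAS, TTCNNNGAA), the AP-1 element (TGANTCA) and the NF-kB consensus. Over all 32851 windows, 3.44% held the ISRE letters, 8.3% the GAS letters, 7.81% the AP-1 letters and 4.51% the NF-kB consensus. The Lgals9 window held the ISRE letters (capitals), the Cd80 window the AP-1 letters and the Pdcd1lg2 window the NF-kB consensus. The Cd274 window held none of the 4 motifs, and neither did the windows of Vsir, Cd47 and Pirb. No member window held the GAS letters. The Cd80 window lies inside the span of a longer annotated transcript. A match describes the letters of these windows and no binding.

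In the Ly6c2 monocyte gate, the gate of inflammatory monocytes, 4 of 9 members were at least 1.5-fold higher in IR and none was 1.5-fold lower. They were Cd274, Pdcd1lg2, Cd80 and Lgals9. Among the 10440 genes with at least 20 UMIs in that gate, 7.52% were at least 1.5-fold higher and 8.6% at least 1.5-fold lower. The C1q macrophage gate had 6 of 9 members at least 1.5-fold higher (the same 4 with Cd86 and Cd47) against 7.88% of 11127 genes, with none 1.5-fold lower against 12.8%. When each cell took the gate of most cells of its cluster, the counts were 3 of 9 in monocytes, where Cd274 was under 1.5-fold, and 3 of 9 in macrophages, where Cd274, Pdcd1lg2 and Lgals9 were under it. The share of all genes past 1.5-fold was not computed for that assignment, so these counts have no background beside them. The mature DC gate had 3 of the 8 members with enough UMIs (Pdcd1lg2, Cd86 and Lgals9) against 14.1% of 6777 genes, and none 1.5-fold lower against 9.59%. The median log2 ratio of the members was 0.50 in the monocyte gate, 0.63 in the macrophage gate and 0.50 in the mature DC gate, beside medians over all genes of -0.06, -0.07 and 0.06.

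**Figure D1:**
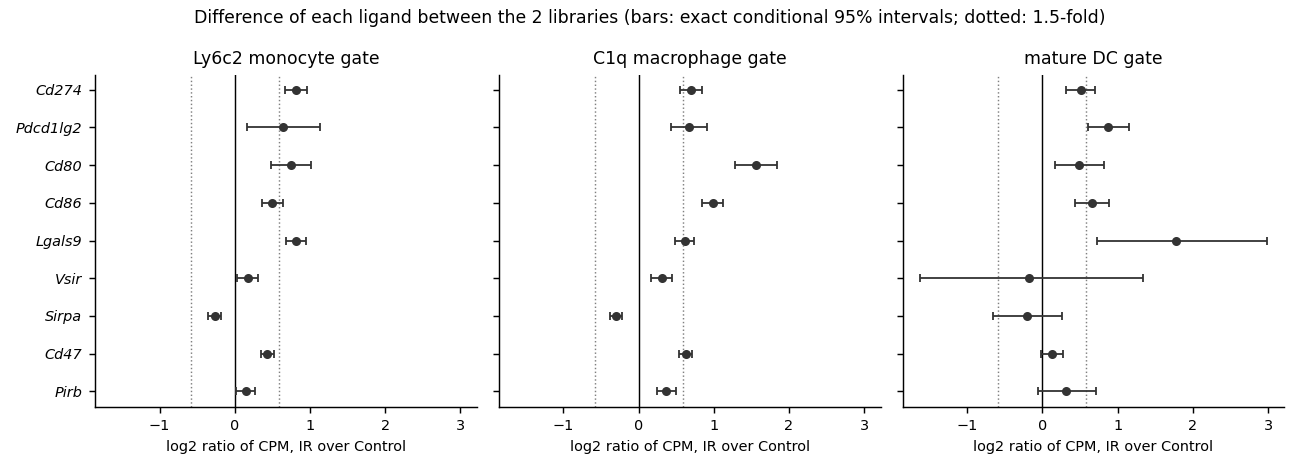
Log2 ratio of CPM, IR over Control, on the horizontal axis for each of the 9 members, in the Ly6c2 monocyte, C1q macrophage and mature DC gates. Points are the ratios, bars exact conditional 95% intervals and dotted lines 1.5-fold; Sirpa is the member to the left of 0 in all 3 gates, and its bar crosses 0 in mature DCs.

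Cd274 (ENSMUSG00000016496, chr19:29367455-29388095, plus strand, GRCm38) encodes PD-L1. In the Ly6c2 monocyte gate its level was 123 CPM in Control (113 to 134) against 217 CPM in IR (207 to 227), from 518 and 1942 UMIs. The intervals did not overlap and the ratio was 0.81 on the log2 scale (0.67 to 0.96), or 0.58 by cluster. In the C1q macrophage gate it went from 92.5 CPM (87.5 to 97.7) to 150 CPM (138 to 163), a log2 ratio of 0.70 (0.56 to 0.84), or 0.52 by cluster. Mature DCs, which migrate and present antigen, had 355 CPM in Control (317 to 397) against 505 CPM in IR (468 to 544). Their log2 ratio of 0.51 (0.31 to 0.71) stayed under 1.5-fold, and it was 0.30 when cells above a mitochondrial limit of 10% were left out.

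Of the smaller gates, neutrophils had 417 CPM in Control (308 to 553) against 577 CPM in IR (522 to 636), overlapping with mature DCs in each library. The Control neutrophil value rests on 48 UMIs from 30 cells, with 18.8% of them from 1 cell, and the neutrophil log2 ratio of 0.47 lay between 0.035 and 2.76 over the alternatives, so the Control neutrophil level has no firm place in the order. Nonclassical monocytes had 250 CPM (170 to 355) and 345 CPM (278 to 423), and these intervals overlapped between libraries. T cells had 50.4 CPM in Control (41.6 to 60.5) against 88.0 CPM in IR (76.0 to 101), and NK cells 45.6 and 53.4 CPM with overlapping intervals. In the T cell gate the macrophage markers Mmp12, Mmp13, Mmp14, Spp1 and Gpnmb summed to 474 and 1172 CPM, and the 3 C1q markers to 208 and 150 CPM. The part of myeloid RNA in the T cell Cd274 difference was not tested. In cDC2 cells Cd274 was 90.9 CPM (67.2 to 120) and 87.2 CPM (66.4 to 112), which did not differ beyond counting error. In cDC1 cells it was 53.0 CPM (30.9 to 84.8) and 172 CPM (120 to 238), from 17 and 36 UMIs, but the log2 ratio of 1.70 became -0.60 when cells were gated at 2000 UMIs.

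**Figure D2:**
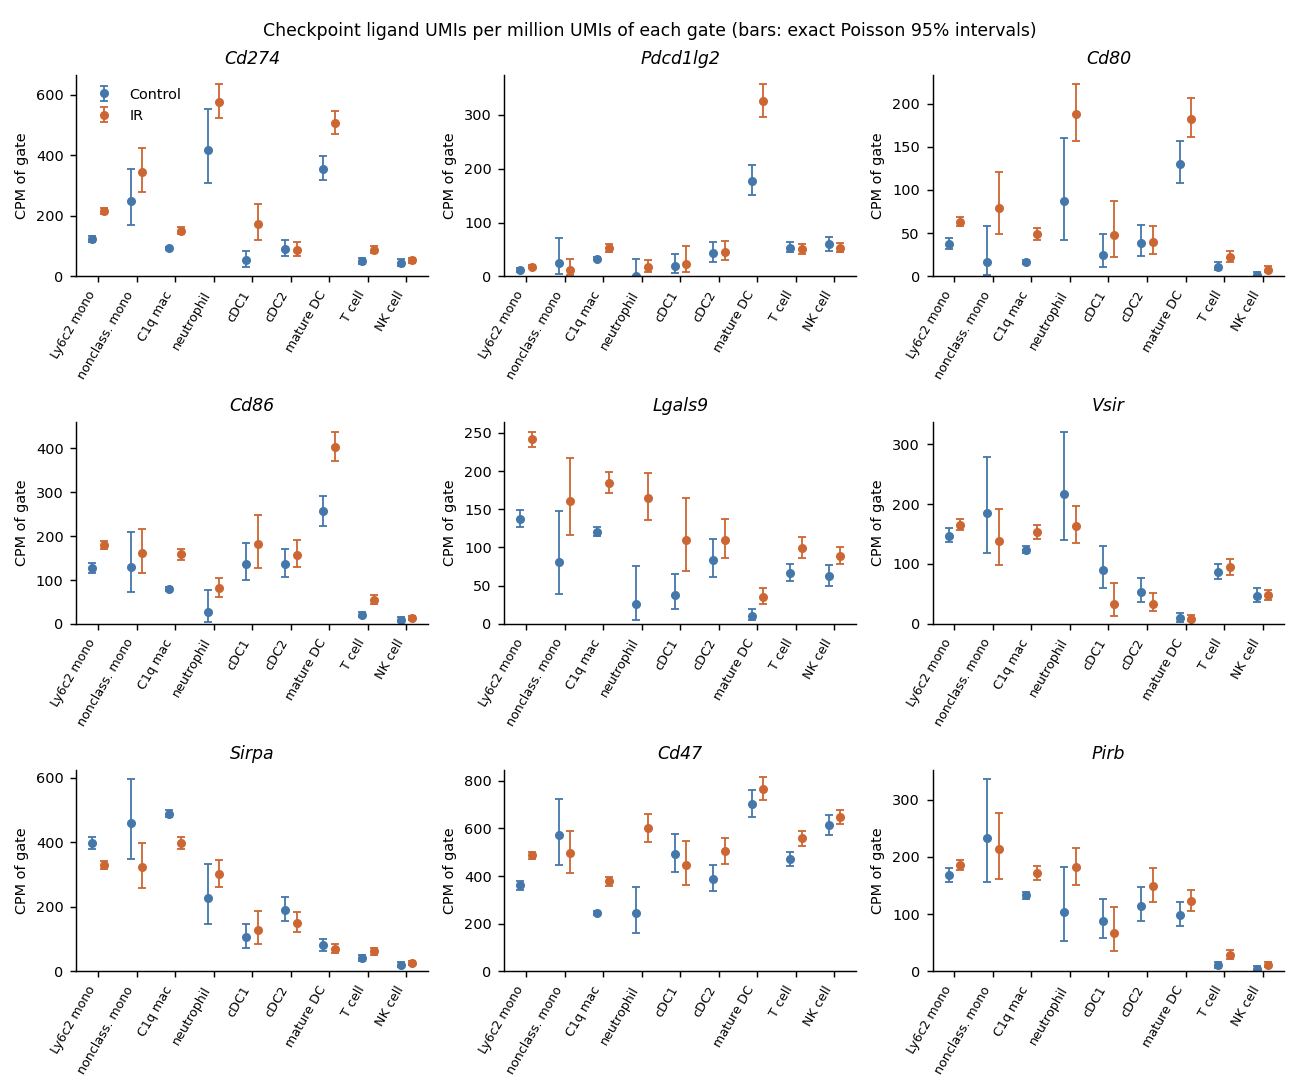
CPM of each of the 9 members (1 panel each, vertical axis from 0) in 7 myeloid and DC gates and in T and NK cells, for Control and IR. Points are levels and bars exact Poisson 95% intervals. Pdcd1lg2 is highest in mature DCs, Sirpa has its highest point value in C1q macrophages, and Pirb is low in T and NK cells.

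Shares of cells with a UMI were also read, at an equal depth of 1000 UMIs. At such low counts a share follows largely from the level. Like the CPM, it does not separate more cells with a transcript from more UMIs in each cell. Cd274 was found in 66 of 633 Control monocytes (10.4%, exact binomial 8.16% to 13.1%) against 191 of 951 IR monocytes (20.1%, 17.6% to 22.8%). The macrophage shares were 8.57% (7.19% to 10.1%) and 16.8% (13.1% to 21.1%). Mature DCs gave 32.2% (23.8% to 41.5%) and 35.8% (27.7% to 44.6%), which overlapped. The shares in NK cells, at a median depth of 5115 and 6508 UMIs before thinning, were 4.31% and 5.48%. Whether the NK cell shares are background was not tested. No single cell held more than 2.51% of the Cd274 UMIs of the monocyte gate or of those of the macrophage gate. Without thinning the monocyte shares were 39.0% and 63.6%.

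Pdcd1lg2 (ENSMUSG00000016498, chr19:29410919-29471161, plus strand), downstream of Cd274 on the same strand, encodes PD-L2 and was a transcript of mature DCs. There it was 177 CPM in Control (150 to 207) against 325 CPM in IR (296 to 357), a log2 ratio of 0.88 (0.61 to 1.15). Every other gate was at or below 59.2 CPM in both libraries. Macrophages had 33.0 CPM (30.0 to 36.1) and 52.6 CPM (45.7 to 60.2), and the intervals did not overlap, but the log2 ratio of 0.67 was 0.55 by cluster. The Control level lay under the 34.7 CPM of droplets of 10 to 100 UMIs. Free RNA, caught from outside the cell, was estimated at 2.06% and 0.662% of macrophage UMIs in Control and IR. For monocytes the estimates were 7.83% and 1.29%. The estimates came from granzyme genes and Nkg7, part of which the gates themselves limit. Whether Pdcd1lg2 levels under those of the droplets are background was not tested. The share of macrophages with Pdcd1lg2 at 1000 UMIs was 2.79% in Control and 2.80% in IR, below the NK cell shares of 5.26% and 4.52%. Within the macrophage gate the difference was largest in the Dcstamp Ccl17 subset, 46.2 CPM (35.2 to 59.4) in 126 Control cells and 158 CPM (122 to 203) in 29 IR cells. The Lyve1 Folr2 subset had 57 UMIs in 242 Control cells and 2 UMIs in 21 IR cells, a log2 ratio of -1.58 whose interval (-4.66 to 0.34) includes 0. In Ly6c2 monocytes the level was 11.2 CPM (8.23 to 14.9) and 17.4 CPM (14.8 to 20.4), under the 34.7 and 46.2 CPM of those droplets. This log2 ratio of 0.64 was 0.10 under the mitochondrial limit of 10% and 0.041 when gated at 2000 UMIs. NK cells had more, 59.2 CPM in Control (47.1 to 73.4) against 52.4 CPM in IR (44.6 to 61.2).

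Cd80 (ENSMUSG00000075122, chr16:38455561-38496335, plus strand) had the largest ratio of the 9 members in macrophages. Its level there was 16.6 CPM in Control (14.6 to 18.9) against 49.1 CPM in IR (42.5 to 56.5), 2.95-fold, and a log2 ratio of 1.56 (1.28 to 1.84). The ratio was 1.15 on the log2(CPM + 10) scale, which shrinks differences of low levels. In monocytes Cd80 was 37.6 CPM (32.0 to 44.0) and 63.1 CPM (58.0 to 68.5), a log2 ratio of 0.74 (0.49 to 1.01). Mature DCs had 131 CPM (108 to 157) and 183 CPM (161 to 207). The share of macrophages with Cd80 at 1000 UMIs was 1.84% (1.21% to 2.66%) in Control and 6.44% (4.13% to 9.51%) in IR, while NK cells had 0 of 209 in Control, which by the limit of 3 counts allows a share with a UMI at that depth of up to 1.44%, and 0.323% in IR. All macrophage subsets had a higher Cd80 level in IR, and the Lyve1 Folr2 subset (28 and 5 UMIs) was the one whose ratio interval included 0.

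Cd86 (ENSMUSG00000022901, chr16:36603869-36666081, minus strand), the other B7 gene, had its highest level in mature DCs, 257 CPM in Control (224 to 292) against 403 CPM in IR (370 to 438). The log2 ratio there was 0.65 (0.43 to 0.88). Macrophages went from 80.3 CPM (75.7 to 85.2) to 159 CPM (147 to 172), a log2 ratio of 0.98 (0.84 to 1.13). In monocytes the levels of 127 CPM (116 to 138) and 180 CPM (171 to 189) did not overlap, but the ratio was under 1.5-fold. Macrophages in Control stood below Ly6c2 monocytes in Cd86, and in IR the intervals of the 2 gates overlapped. Neutrophils were low, with 26.1 and 81.6 CPM from 3 and 57 UMIs.

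At 2000 UMIs per cell, the number of the 4 PD-1 and B7 ligands found in the same cell also differed. In the macrophage gate, 69 of 1380 Control cells (5%, 3.91% to 6.29%) against 60 of 339 IR cells (17.7%, 13.8% to 22.2%) held UMIs of at least 2 of them. The mature DC shares were 42 of 108 (38.9%, 29.7% to 48.7%) and 78 of 127 (61.4%, 52.4% to 69.9%), and the monocyte shares 8.98% (6.78% to 11.6%) and 16.1% (13.8% to 18.7%). Both PD-L1 and PD-L2 transcripts were found in 13 Control macrophages (0.942%, 0.503% to 1.61%) and in 15 IR macrophages (4.42%, 2.50% to 7.19%). In mature DCs this held for 13.9% and 24.4% of cells, with overlapping intervals (7.99% to 21.9% and 17.2% to 32.8%). Such a share follows from the level of each ligand and says nothing of whether they are tied to each other.

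**Figure D3:**
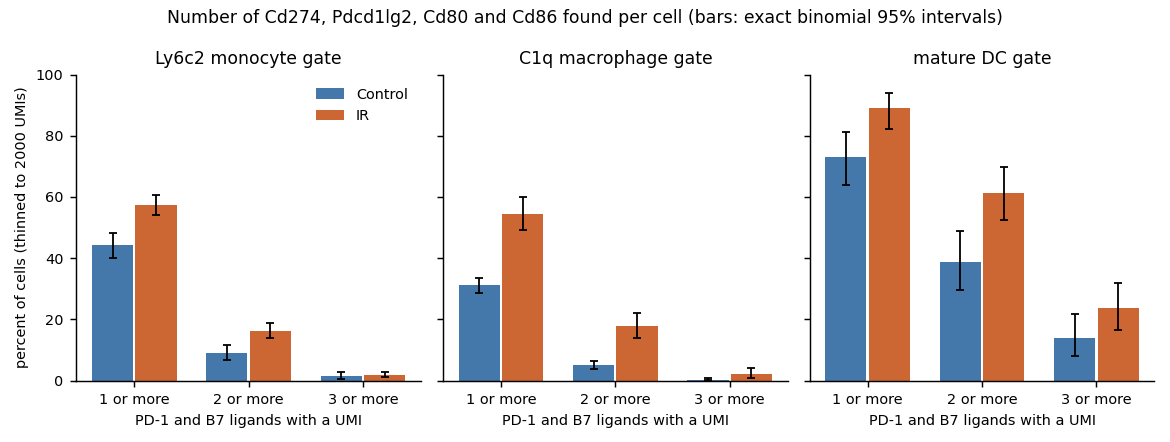
Percent of cells, each thinned to 2000 UMIs, with UMIs of 1 or more, 2 or more and 3 or more of Cd274, Pdcd1lg2, Cd80 and Cd86, in 3 gates for Control and IR. Bars start at 0 and whiskers are exact binomial 95% intervals; the shares with 2 or more are 5% and 17.7% in macrophages and 38.9% and 61.4% in mature DCs.

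Lgals9 (ENSMUSG00000001123, chr11:78962974-78984946, minus strand) encodes galectin-9, a ligand of TIM-3 (Havcr2). It was highest in Ly6c2 monocytes, 138 CPM in Control (127 to 150) against 241 CPM in IR (231 to 252), a log2 ratio of 0.81 (0.67 to 0.94). Macrophages had 121 CPM (115 to 127) and 185 CPM (171 to 198), a log2 ratio of 0.61 (0.48 to 0.74). Mature DCs were low, with 9 UMIs or 10.2 CPM (4.67 to 19.4) in Control and 48 UMIs or 34.9 CPM (25.8 to 46.3) in IR. These are under the 87.9 and 105 CPM of droplets of 10 to 100 UMIs, and 33.3% of the Control UMIs came from 1 cell. Free RNA was estimated at 3.66% and 2.84% of mature DC UMIs, and whether these Lgals9 levels are background was not tested. Neutrophils held 3 UMIs in Control and 115 in IR (26.1 and 165 CPM), a ratio whose log2 interval runs from 1.07 to 4.96. NK cells had 62.0 CPM (49.7 to 76.5) and 88.9 CPM (78.6 to 100).

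Vsir (ENSMUSG00000020101, chr10:60346851-60372684, plus strand) encodes VISTA, which acts as ligand and as receptor. Its level in Ly6c2 monocytes was 147 CPM in Control (136 to 159) against 166 CPM in IR (157 to 174), with overlapping intervals, and the log2 ratio of 0.17 became -0.21 when each cell took the gate of most cells of its cluster. In macrophages it was 124 CPM (118 to 130) and 153 CPM (141 to 166), a log2 ratio of 0.30 (0.17 to 0.44). In DCs the point values were lower in IR, with overlapping intervals in each DC gate. Vsir was 90.4 CPM (60.5 to 130) and 33.4 CPM (13.4 to 68.7) in cDC1 cells, from 29 and 7 UMIs, and 53.8 CPM (36 to 77.2) and 34.0 CPM (21.5 to 51.0) in cDC2 cells, while mature DCs held 8 and 11 UMIs. Over the alternatives the log2 ratio lay between -1.72 and -0.012 in cDC1 cells and between -0.70 and 0.076 in cDC2 cells. T cells had 86.2 CPM (74.5 to 99.2) and 94.5 CPM (82.0 to 108).

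Sirpa (ENSMUSG00000037902, chr2:129592835-129632228, plus strand) encodes the inhibitory receptor by which phagocytes read CD47, and was the member with a lower level in IR in the larger gates. Its point value was highest in macrophages, whose Control interval overlapped that of nonclassical monocytes (348 to 595 CPM). In macrophages it was 488 CPM in Control (476 to 500) against 397 CPM in IR (378 to 417), a log2 ratio of -0.30 (-0.38 to -0.22). In monocytes the levels were 396 CPM (377 to 416) and 329 CPM (317 to 341), a log2 ratio of -0.27 (-0.36 to -0.18). Neither reached 1.5-fold, but the intervals did not overlap. The Lyve1 Folr2 macrophages had the larger difference, 618 CPM (583 to 654) and 384 CPM (302 to 480), or a log2 ratio of -0.69 (-1.04 to -0.35), with 21 IR cells. In mature DCs the intervals overlapped, at 80.6 CPM (62.9 to 102) and 69.9 CPM (56.6 to 85.3).

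Cd47 (ENSMUSG00000055447, chr16:49800533-49915010, plus strand) was measured in every gate. Macrophages had 245 CPM in Control (237 to 253) against 378 CPM in IR (359 to 397), a log2 ratio of 0.63 (0.54 to 0.72). Monocytes had 361 CPM (343 to 379) and 486 CPM (472 to 501), a log2 ratio of 0.43 (0.34 to 0.51). Its highest level was that of mature DCs, 703 CPM (648 to 760) and 766 CPM (720 to 814), where the intervals overlapped. NK cells had 612 and 647 CPM with overlapping intervals, and T cells 470 CPM (442 to 499) and 558 CPM (527 to 591). In the same macrophages, then, the level of the receptor gene Sirpa was lower and that of its ligand gene Cd47 higher in IR.

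Pirb (ENSMUSG00000058818, chr7:3711409-3720391, minus strand) encodes an inhibitory receptor for MHC class I on myeloid cells. Its levels were 168 CPM (156 to 181) and 185 CPM (177 to 195) in monocytes, which overlapped (log2 ratio 0.14, or -0.13 by cluster), and 133 CPM (127 to 139) and 172 CPM (159 to 185) in macrophages, which did not. The log2 ratio in macrophages was 0.37 (0.24 to 0.50). T cells had 10.6 and 29.0 CPM and NK cells 4.28 and 11.4 CPM. Pirb and Sirpa have near-identical relatives, so reads could have been split between copies and their values are less certain. Of the 14 listed relatives, 8 had a row, among them Pira2 with log2 ratios of 0.22 (0.03 to 0.41) in monocytes and 0.50 (0.32 to 0.69) in macrophages, and Sirpb1b with 0.58 (0.26 to 0.91) and 0.74 (0.45 to 1.02). In monocytes 1 of the 8 was at least 1.5-fold higher and none lower, beside 7.52% and 8.6% of all genes. In macrophages 3 of 8 were higher and 1 lower, beside 7.88% and 12.8%. In mature DCs the 1 relative with enough UMIs was higher, beside 14.1%.

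Neutrophils gave 5 of 8 members at least 1.5-fold higher in IR (Cd80, Cd86, Lgals9, Cd47 and Pirb), where 30.7% of 3814 genes were. With 115010 UMIs in the Control gate, only Lgals9 and Cd47 had intervals that did not overlap. Neutrophil Cd47 was 243 CPM in Control (162 to 352) against 600 CPM in IR (544 to 660). In the same gate the 6 monocyte markers summed to 843 CPM in Control, with 2 of them at 0, and to 3763 CPM in IR, and the 5 markers of the Mmp12 Mmp13 list to 852 CPM, also with 2 at 0, and 2830 CPM. The part of these markers in the neutrophil ratios was not tested. The cDC2 gate had 0 of 9 members at least 1.5-fold higher, against 12% of 5919 genes, and the cDC1 gate 2 of 7, against 13.1% of 3538. Vsir was 1.5-fold lower in both, beside 12.1% and 17.5% of genes. Nonclassical monocytes had 2 of 8 members at least 1.5-fold higher (Cd80 and Lgals9, both with overlapping intervals) against 14% of 2792 genes.

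Within the macrophage gate, the Lyve1 Folr2 subset had 2 of 9 members at least 1.5-fold higher (Cd274 and Cd80) beside 15.8% of genes and 2 of 9 lower (Pdcd1lg2 and Sirpa) beside 23.1%. The Dcstamp Ccl17 subset had 5 of 9 higher beside 11.4% of genes and none lower beside 19.3%. The Mmp12 Mmp13 subset had 5 of 9 higher beside 10.6%, the cycling subset 6 of 9 beside 13.9%, and the remaining C1q macrophages 5 of 9 beside 9.91%. Cd80 was among the members at least 1.5-fold higher in all 5 of them.

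The gates themselves were not alike in the 2 libraries. In the macrophage gate the 6 monocyte markers summed to 809 CPM in Control and 1800 CPM in IR, the 5 genes of the Mmp12 Mmp13 list to 3371 and 7607 CPM, and the 8 of the Lyve1 Folr2 list to 987 and 489 CPM, with no marker of these lists at 0. In the monocyte gate the 8 neutrophil markers summed to 202 and 591 CPM and the 8 T cell markers to 44.1 and 73.1 CPM, again with none at 0. In the mature DC gate the 6 monocyte markers summed to 107 and 539 CPM, with 1 at 0 in each library, and the 3 C1q markers to 161 and 45.1 CPM. The part of these differences in the ligand ratios was not tested. In C1q macrophages outside the 4 named subsets (724 and 195 cells), where the monocyte markers summed to 898 and 2371 CPM, the log2 ratio was 0.79 (0.60 to 0.99) for Cd274, 1.92 (1.52 to 2.31) for Cd80, 1.06 (0.86 to 1.25) for Cd86 and -0.34 (-0.45 to -0.22) for Sirpa. In the Mmp12 Mmp13 subset (113 and 79 cells) Cd274 was 110 CPM (91.8 to 130) and 125 CPM (104 to 149), which overlapped.

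The 14 genes of an interferon list (Isg15, Ifit1, Irf7 and others that interferons induce) summed to 2285 CPM in Control monocytes and 5753 CPM in IR monocytes. The macrophage sums were 1433 and 3755 CPM and the mature DC sums 1263 and 3568 CPM. Of the 14, 12 were at least 1.5-fold higher in IR in each of the 3 gates, beside 7.52%, 7.88% and 14.1% of all genes. Cells were therefore grouped by their interferon-list UMIs per 1000. In monocytes with 0 or 1 such UMI (339 Control and 246 IR cells), Cd274 was 90.8 CPM (79.2 to 104) and 140 CPM (126 to 156). In those with 10 or more (33 and 189 cells) it was 314 CPM (237 to 408) and 361 CPM (331 to 393). The Cd274 level was thus higher in cells with more interferon-list UMIs in both libraries, and the log2 ratio between libraries was 0.63 (0.38 to 0.88) in the lowest group and 0.20 (-0.20 to 0.62) in the highest. The highest group held 5.21% of Control monocytes and 19.9% of IR monocytes.

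The Lgals9 level followed the same order in monocytes, from 105 and 147 CPM in the lowest group to 314 CPM (237 to 408) and 467 CPM (433 to 504) in the highest. Its log2 ratio between libraries was 0.48 (0.25 to 0.72) in the lowest group and 0.57 (0.18 to 0.99) in the highest. For Lgals9 in macrophages these ratios were 0.27 (0.07 to 0.48) and 1.23 (0.67 to 1.82), the latter from 35 and 113 UMIs. In macrophages the lowest group had Cd274 at 75.0 CPM in Control (69.5 to 80.8) against 128 CPM in IR (112 to 146), a log2 ratio of 0.77 (0.55 to 0.99). The highest group (20 and 27 cells) had 315 CPM (244 to 400) and 222 CPM (171 to 283), a log2 ratio of -0.51 (-1.02 to 0.01). The point values of Cd80 showed no clear climb with the interferon-list UMIs in either gate. In macrophages they were between 16.5 and 18.8 CPM in the 4 Control groups and between 41.0 and 53.4 CPM in IR. The highest macrophage group held 4 Cd80 UMIs in Control (5.13 to 48.2 CPM) and 12 in IR (21.2 to 71.6 CPM). Those intervals are too wide to show whether the Cd80 level climbed. In Control monocytes it was 42.9, 37.9, 20.4 and 11.2 CPM from the lowest to the highest group (2 UMIs in the last), and in IR monocytes it lay between 58.4 and 66.6 CPM. In the lowest group the log2 ratio of Cd80 was 1.69 (1.30 to 2.07) in macrophages and 0.55 (0.18 to 0.92) in monocytes. Sirpa was lower in IR in the lowest group too, at 496 CPM (481 to 510) and 406 CPM (377 to 437) in macrophages.

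**Figure D4:**
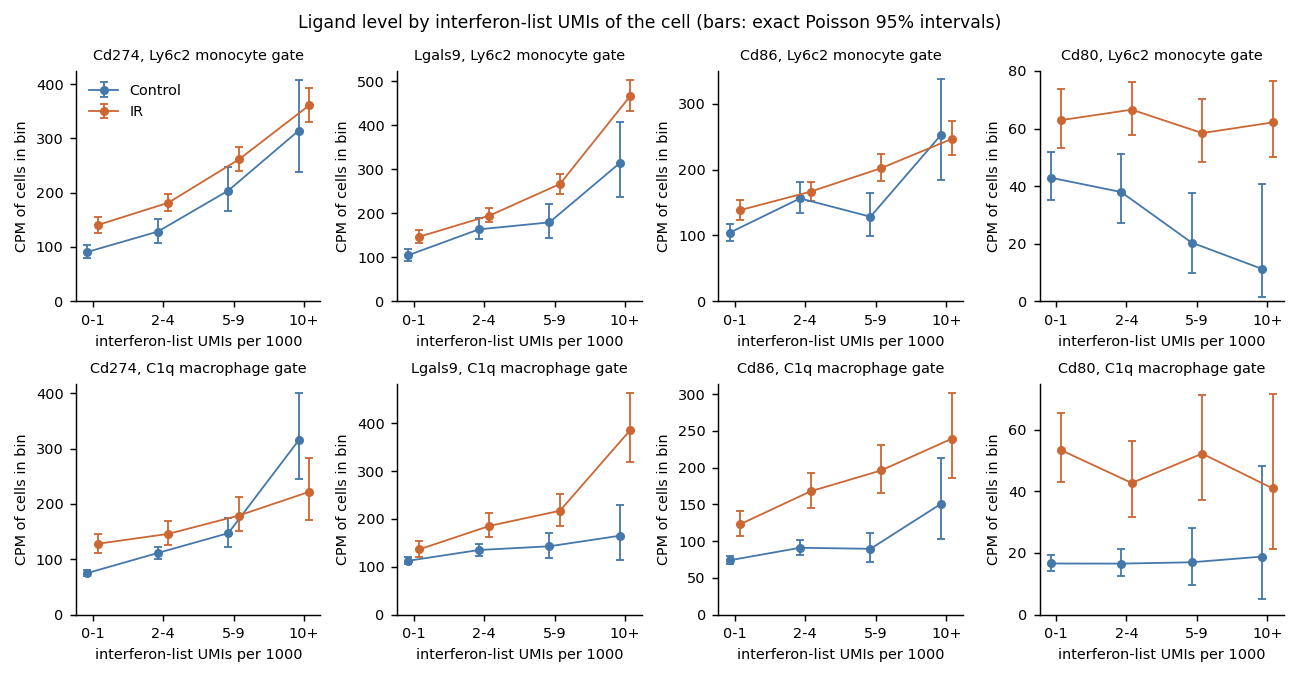
CPM of Cd274, Lgals9, Cd86 and Cd80 (vertical axes from 0) in cells grouped by interferon-list UMIs per 1000 UMIs (0 to 1, 2 to 4, 5 to 9, 10 or more), in the Ly6c2 monocyte gate (top) and the C1q macrophage gate (bottom). Points are levels in Control and IR and bars exact Poisson 95% intervals. Cd274 climbs from 90.8 to 314 CPM in Control monocytes. The Cd80 points lie between 16.5 and 18.8 CPM in Control macrophages, the last from 4 UMIs (5.13 to 48.2 CPM).

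Monocytes held 20.9% of the UMIs of the 7 gates in Control and 55.4% in IR, and macrophages 69.3% and 24.7%. A pooled value over all gated myeloid cells and DCs therefore mixes the level in each gate with the share of each gate. The pooled log2 ratio of Cd274 was 1.07 (0.99 to 1.15), from 113 to 236 CPM, and with the gate mix held at Control it was 0.69. For Cd80 the values were 1.45 and 1.11, for Cd86 0.91 and 0.80, and for Cd47 0.71 and 0.50. Sirpa went from -0.48 to -0.29. Pdcd1lg2 and Vsir changed little, with 0.63 and 0.70 for Pdcd1lg2 and 0.21 and 0.24 for Vsir.

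**Figure D5:**
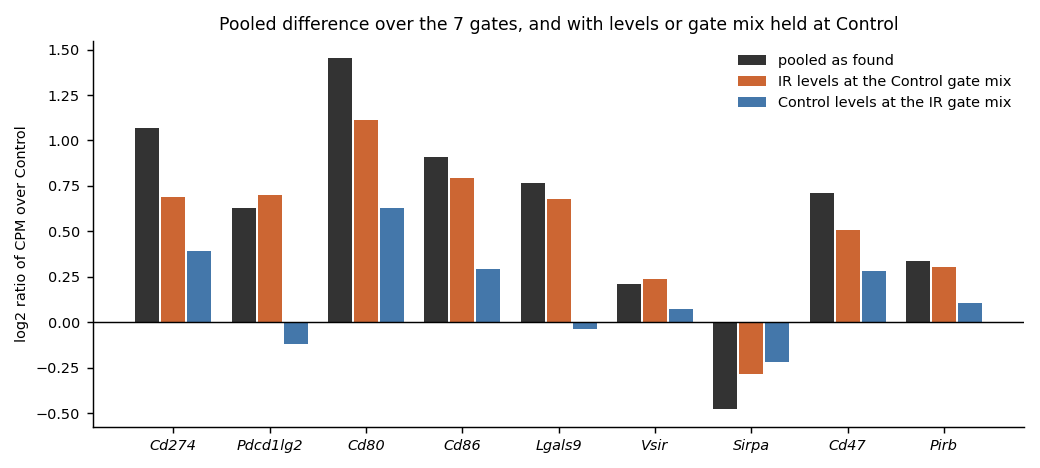
Log2 ratio of CPM over Control (vertical axis) for each of the 9 members, pooled over 7 gates as found, with IR levels at the Control gate mix, and with Control levels at the IR gate mix. Bars start at 0 and carry no interval; for Cd274 they stand at 1.07, 0.69 and 0.39.

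Other genes of the pathway were read from lists. Among 24 other checkpoint ligands, 18 had enough UMIs in monocytes and 5 were at least 1.5-fold higher, with none 1.5-fold lower, beside 7.52% and 8.6% of all genes. Those with intervals that did not overlap were H2-T23, the mouse Qa-1 gene read by NKG2A (323 to 518 CPM, log2 ratio 0.68), Tnfsf9, the 4-1BB ligand (43.1 to 75.2 CPM, 0.80), and Cd276, or B7-H3 (2.86 to 7.48 CPM, 1.39). In macrophages 5 of 17 were higher, beside 7.88% of all genes, with H2-T23 at 234 and 447 CPM (0.93), Tnfsf9 at 32.3 and 71.6 CPM (1.15) and Cd24a at 50.1 and 78.6 CPM (0.65). Tnfrsf14, at 48 and 9 UMIs with overlapping intervals, was 1.5-fold lower. In mature DCs 5 of 15 were higher, beside 14.1% of all genes, among them Cd200, the ligand of the inhibitory receptor CD200R (288 to 497 CPM, 0.79), and Lgals3, or galectin-3 (434 to 740 CPM, 0.77), and Cd24a was lower (61.3 to 31.3 CPM, -0.97).

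Of 15 inhibitory myeloid receptors, 4 of 14 with enough UMIs were at least 1.5-fold higher in monocytes, namely Siglec1 (4.05 to 13.4 CPM), Cd300lf (159 to 269 CPM), Havcr2 (50.5 to 83.2 CPM) and Siglecg, whose intervals overlapped. In macrophages 4 of 13 were higher, with Lilrb4a at 345 and 571 CPM and Cd300lf at 120 and 236 CPM, and Siglece, with overlapping intervals, was lower (7.96 to 5.26 CPM). In mature DCs 2 of 6 were higher and 1 was lower. Of all genes in monocytes, macrophages and mature DCs, 7.52%, 7.88% and 14.1% were at least 1.5-fold higher, and 8.6%, 12.8% and 9.59% lower. Of 28 genes of PD-L1 control, 2 were at least 1.5-fold higher in monocytes (Stat2, 38.3 to 82.7 CPM, and Socs3, 289 to 457 CPM) and 3 in macrophages (Stat2, 23.5 to 63.9 CPM, Socs1, 60.7 to 118 CPM, and Irf1, 106 to 161 CPM), shares close to the 7.52% and 7.88% of all genes. Cmtm4, with overlapping intervals, was 1.5-fold lower in monocytes (4.29 to 2.79 CPM), and in mature DCs 5 of 26 were higher and 2 lower, beside 14.1% and 9.59%. Cmtm6, whose product keeps PD-L1 at the surface, was at 73.6 and 79.6 CPM in monocytes and at 66.7 and 66.6 CPM in macrophages, with overlapping intervals. The log2 ratio of the interferon-gamma receptor gene Ifngr1 was 0.02 (-0.10 to 0.15) in monocytes and -0.06 (-0.20 to 0.09) in macrophages.

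The receptors for these ligands were read in T and NK cells. Pdcd1, the PD-1 gene, was 167 CPM in Control T cells and 206 CPM in IR T cells (378 and 447 UMIs, log2 ratio 0.30). Ctla4 was 445 and 339 CPM (-0.39), Cd28 317 and 214 CPM (-0.57) and Havcr2 46.0 and 71.9 CPM (0.65), each with intervals that did not overlap. In the T cell gate the 6 monocyte markers summed to 1245 and 2471 CPM and the 5 of the Mmp12 Mmp13 list to 474 and 1172 CPM. The 3 C1q markers summed to 208 and 150 CPM there. The part of such myeloid RNA in the T cell differences, Havcr2 among them, was not tested. In NK cells Pdcd1 was 42.8 and 20.5 CPM, while in the same gate Cd8a was 52.1 and 12.4 CPM and the 8 T cell markers summed to 702 CPM (1 at 0) and 508 CPM. Their part in the Pdcd1 difference was not tested.

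By the pattern over 26 points (13 gates and macrophage subsets in 2 libraries, on the log2(CPM + 10) scale), the genes most like each member among 5341 were found by Pearson correlation. For Cd274 they were Rhog (r = 0.89), Nfkbia (0.89) and Ehd1 (0.88), for Cd86 Irf5 (0.93), Atox1 (0.93) and Lsr (0.91), for Sirpa Cybb (0.95), Gda (0.94) and Lamp2 (0.94), and for Pirb Csf2ra (0.94) and Il13ra1 (0.92). Cd80 was most like Ube2l6 (0.89), Adprh (0.89) and Marcksl1 (0.88), and Lgals9 most like Casp8 (0.92), Atp1b3 (0.88) and Milr1 (0.87). For Vsir they were Tmem189 (0.89), Susd6 (0.88) and Slc25a37 (0.88), for Cd47 Dusp5 (0.85), Baz2a (0.85) and Helz2 (0.85), and for Pdcd1lg2 Sap30l (0.84), Gnl2 (0.82) and Rgs1 (0.82). The points share 2 libraries and differ in depth, so these are descriptions.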

How the data were processed

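Single-cell libraries of CD45+ cells were made with a Chromium 3′ v3.1 kit, per the labels. The authors deposited an unfiltered matrix of raw UMI counts for each library (mm10). The labels name Cell Ranger 6.0.1 and the matrix headers Cell Ranger 4. Total counts were 48593879 in Control and 42406461 in IR. Barcodes with at least 1000 UMIs and 200 genes and at most 25% mitochondrial UMIs were kept, and the top 6% by Scrublet score were removed as doublets with scanpy 1.11.5 (281 and 205), since the automatic Scrublet threshold marked 0 cells. Gates came from marker UMIs of cells thinned to 1000 UMIs. The UMI minimums of the gates were set after the data had been seen, and members and lists were chosen with earlier results of these data known. A cell with 1 T or NK cell marker UMI was left out of the myeloid gates, and 1142 Control and 669 IR cells stayed unassigned. Macrophage subsets were set at 2000 UMIs. Members, their 3 most alike genes and list genes past 1.5-fold without overlapping intervals (at most 8 a list) are named, except 1 gene that is not reported here. A gene was compared at 20 UMIs or more over both libraries, past 1.5-fold. Ratios used edgeR 4.0.16 TMM factors as 1 of 13 alternatives. Interval code was run on simulated Poisson counts, which hold no spread between cells, tumors or libraries, so this checked the code only. Each group being 1 library, nothing was tested. Antisense or opposite-strand genes overlap Cd274, Pdcd1lg2 and Vsir. Their reads cannot be told apart if strand was not used in counting, which is not given in the sources used here.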

Additional observations from a re-analysis of the deposited data

Results flagged for a closer look

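Vsir had point values of opposite direction between gates, and the difference between gates was not tested. Its log2 ratio of CPM, IR over Control, was 0.17 in the Ly6c2 monocyte gate and 0.30 in the C1q macrophage gate but -1.44 (-2.87 to -0.22) in the cDC1 gate, which held 29 UMIs in Control and 7 in IR and levels with overlapping intervals. The monocyte ratio was -0.21 by cluster, and the cDC1 ratio lay between -1.72 and -0.012 over the alternatives.

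Droplets of 10 to 100 UMIs, which hold free RNA and belong to no gate, had higher levels of 4 members in IR. The log2 ratios there were 0.71 for Cd274 (68.7 and 112 CPM), 0.72 for Cd80 (15.7 and 25.8 CPM), 0.65 for Cd86 (58.3 and 91.4 CPM) and 0.67 for Cd47 (280 and 446 CPM), and 8.32% of 10153 genes were at least 1.5-fold higher. Sirpa was lower in these droplets (218 and 163 CPM, log2 ratio -0.42). With the expected free RNA subtracted, all of the 58 member ratios stayed within their intervals. The estimate came from granzyme genes and Nkg7 or from C1q genes, part of which the gates themselves limit. It differed between libraries, at 7.83% of monocyte UMIs in Control and 1.29% in IR. The check therefore cannot show how large the part of free RNA was.

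Cells that passed no gate also had higher levels of Cd274 (87.2 and 133 CPM, log2 ratio 0.61) and Cd80 (22.5 and 38.9 CPM, log2 ratio 0.79), where 13.5% of 12244 genes were at least 1.5-fold higher. Cd86, Lgals9 and Cd47 were higher there by less than 1.5-fold. Sirpa was lower (301 and 177 CPM, log2 ratio -0.77), past 1.5-fold, and so was Vsir, by less (85.0 and 72.9 CPM, log2 ratio -0.22). These intervals did not overlap.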

How the results depend on the processing

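No paired analysis was possible because each group is a single library. Of 729 member ratios recomputed under 13 alternatives, 673 stayed within the 95% interval of the reported ratio, 52 left it and 4 with an interval that leaves out 0 turned. Counting ratios whose interval includes 0, 38 changed sign. The causes were not tested. Gating at 2000 UMIs took 11 of 57 ratios out of their interval and turned 1. Giving each cell the gate of most cells of its cluster took out 9 of the 34 it could give and turned 2. In monocytes the latter gave log2 ratios of 0.58 (Cd274), 1.53 (Pdcd1lg2) and 0.29 (Cd47) and turned Vsir to -0.21 and Pirb to -0.13. In macrophages it gave 0.52 (Cd274), 1.21 (Cd80), 0.77 (Cd86) and 0.43 (Lgals9), and 3 members past 1.5-fold in place of 6, without a share of all genes for that assignment. A mitochondrial limit of 10% gave 0.10 (Pdcd1lg2) and -0.12 (Sirpa) in monocytes and 0.30 (Cd274) in mature DCs. Gating at 2000 UMIs gave 0.041 (Pdcd1lg2, monocytes) and 0.82 (Cd86, macrophages) and turned Cd274 to -0.60 in cDC1 cells. CPM plus 10 gave 1.15 (Cd80) and the reduced total -0.38 (Sirpa) in macrophages. Another thinning seed turned Sirpa to 0.17 in nonclassical monocytes. Holding the gate mix at Control gave pooled ratios of 0.69 (Cd274), 1.11 (Cd80), 0.80 (Cd86), 0.68 (Lgals9), -0.29 (Sirpa) and 0.50 (Cd47).

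Shares of cells with Cd274 follow depth. In Control and IR they were 39.0% and 63.6% (monocytes), 41.1% and 65.3% (macrophages) and 77.4% and 91.0% (mature DCs) without thinning, and 21.1% and 31.8%, 14.9% and 30.1%, and 51.9% and 59.8% at 2000 UMIs. The percent of all genes at least 1.5-fold higher was 4.97% in monocytes and 8.52% in mature DCs at 100 UMIs or more, and 15.4% in macrophages with no filter.

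With 1 library per group, mouse, tumor and library cannot be told apart from irradiation. Gates under 100 cells in a library, and members with under 20 UMIs, carry wide counting intervals.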
